A study of Mus musculus with 9 samples.

Results

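The homeostatic microglia genes are 10 genes that are used to recognise resting microglia: P2ry12, P2ry13, Gpr34, Cx3cr1, Tmem119, Siglech, Sall1, Olfml3, Aif1 and Adgre1. They were chosen by symbol, and each of the 10 had 1 row among the 22337 genes measured. RNA-seq was performed on whole retinas collected at postnatal day (P) 28, with 3 libraries in each of 3 groups. The WT group comprised C57 BL/6J mice that received no injection. Both other groups were rd10 mice, which are homozygous for a missense mutation in Pde6b, the gene of the rod phosphodiesterase beta subunit, and lose their rods in the first weeks of life. NS-treated rd10 mice received NS (normal saline), and their MSC-EVs-treated littermates received extracellular vesicles from mesenchymal stem cells of the human umbilical cord. Each eye was injected with 1 μl at P14 and at P21. One label places the injection in the vitreous and another words it as intravenous into both eyes. The labels do not give the sex of the mice, the number of animals behind a library or whether retinas were pooled, so p-values measure the spread between these libraries. As WT mice were not injected and came from another supplier than the rd10 mice, genotype, injection and source cannot be told apart in comparisons with WT. For the MSC-EVs-treated mice the vesicles cannot be told apart from these either.

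Microglia are the resident macrophages of the retina. In the healthy tissue they lie in the plexiform layers, extend fine processes to survey synapses, and depend on CSF1R ligands for survival and on TGF-β for their identity. When photoreceptors degenerate, microglia move toward the outer retina and take up dying rods, and blood monocytes can enter. In many injured or diseased nervous tissues, activated microglia show less of the homeostatic genes per cell and more of the disease-associated genes, such as Cst7, Itgax and Clec7a. Aif1 (the gene of Iba1) and Adgre1 (the gene of F4/80) differ from the other members in that macrophages of most tissues carry them too.

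All members are protein-coding genes. In GENCODE M21 on GRCm38, P2ry12 (ENSMUSG00000036353, chr3:59216272-59262871) and P2ry13 (ENSMUSG00000036362, chr3:59207892-59210882) are neighbours on the minus strand, and both lie within Med12l on the opposite strand. Gpr34 (ENSMUSG00000040229, chrX:13632089-13640858, plus strand) lies within Cask, also on the opposite strand. P2ry12 shares 9 exonic bases with Med12l, and P2ry13 and Gpr34 share 0 exonic bases with another gene. Whether the libraries kept the strand is not stated. Over those 9 bases, and for reads from introns of Med12l or Cask, the 3 genes cannot be told apart from their hosts. The others are Cx3cr1 (chr9:119901616-120069879, minus), Tmem119 (chr5:113793729-113800516, minus), Siglech (chr7:55768178-55778925, plus), Sall1 (chr8:89027235-89044162, minus), Olfml3 (chr3:103722222-103738001, minus), Aif1 (chr17:35170991-35176068, minus) and Adgre1 (chr17:57358691-57483527, plus). Cx3cr1 shares 78 exonic bases with another gene, the most of any member. At most 1.1% of a member's 50-base stretches (Cx3cr1) also occurred in another gene's transcripts.

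Because the members moved together, the 250 bases upstream of their start sites were searched on both strands for the core of the PU.1 motif (GAGGAA) and for that of MEF2 (TATTTATA). PU.1, encoded by Spi1, is the factor that defines the myeloid lineage, and MEF2C restrains microglial activation. RefSeq promoters on GRCm38.p6 were at hand for 7 of the 10 members, not for Tmem119, Gpr34 or Adgre1. The PU.1 core occurred in 2 of the 7, those of P2ry13 and Aif1, against 23.3% of all 32851 promoters, and the MEF2 core in 0 of the 7, against 1.6%. The members are counted as genes and the background as promoters, and Sall1 has several promoters. The shares are therefore of unlike units, and no excess is read from them. The promoter of P2ry13 is shown whole because it holds a match and no annotated exon (chr3:59210883-59211132, minus strand, 5′ to 3′, motif in capitals), followed by the surroundings of both matches, on the minus strand at chr3:59210915-59210940 for P2ry13 and at chr17:35176044-35176069 for Aif1, whose match is on the reverse strand.
P2ry13 promoter: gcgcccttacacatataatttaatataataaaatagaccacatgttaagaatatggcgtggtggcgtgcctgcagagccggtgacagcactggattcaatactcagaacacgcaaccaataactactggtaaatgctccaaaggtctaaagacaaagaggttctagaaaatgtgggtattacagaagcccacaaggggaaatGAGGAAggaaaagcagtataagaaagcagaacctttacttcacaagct
P2ry13 match: aaggggaaatGAGGAAggaaaagcag
Aif1 match: aggcacccagTTCCTCcatcctattg
The match begins 48 bases before the RefSeq start site in P2ry13 and 7 bases before it in Aif1. In GENCODE M21, Aif1 starts further upstream (chr17:35176068), and an exon of Aif1 itself reaches into its window. The Aif1 match thus lies downstream of that start. These are matches of letters, and binding was not measured.

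The libraries held between 19491717 and 62532343 counts, with MSC-EVs replicate 3 the deepest, so that 1 count was worth 0.0155 to 0.0501 CPM, the count scaled to the library total with TMM factors. The rd10 label was reflected in the rods: the CPM of Pde6b, whose level does not test for a missense mutation, ranged from 2414 to 2605 in WT and from 450.2 to 711.5 in the rd10 libraries. The summed CPM of 4 Y-linked genes was 183 and 189 in MSC-EVs replicates 1 and 2 and at most 0.501 in the other 7 libraries.

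The first comparison sets NS-treated rd10 retinas against WT, where genotype, injection and source cannot be told apart. All 10 members had risen in the retinas given NS, 8 of them by at least 2-fold over WT. By edgeR's quasi-likelihood test with Benjamini-Hochberg adjustment over 14644 genes, 31.2% of genes were called higher and 9.16% were called at least 2-fold higher. The 3 NS libraries lay above the 3 WT libraries for all 10 members, as they did for 33.7% of genes tested. The median log2 fold change of the members was 1.34, with 0.005 over all genes. Summed over the members, the CPM was 26.7, 28.3 and 25.1 in the WT libraries, and it was 95.2, 91.0 and 77.4 in the NS-treated ones. In whole retina, more cells of a type and more RNA per cell cannot be told apart.

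**Figure D1:**
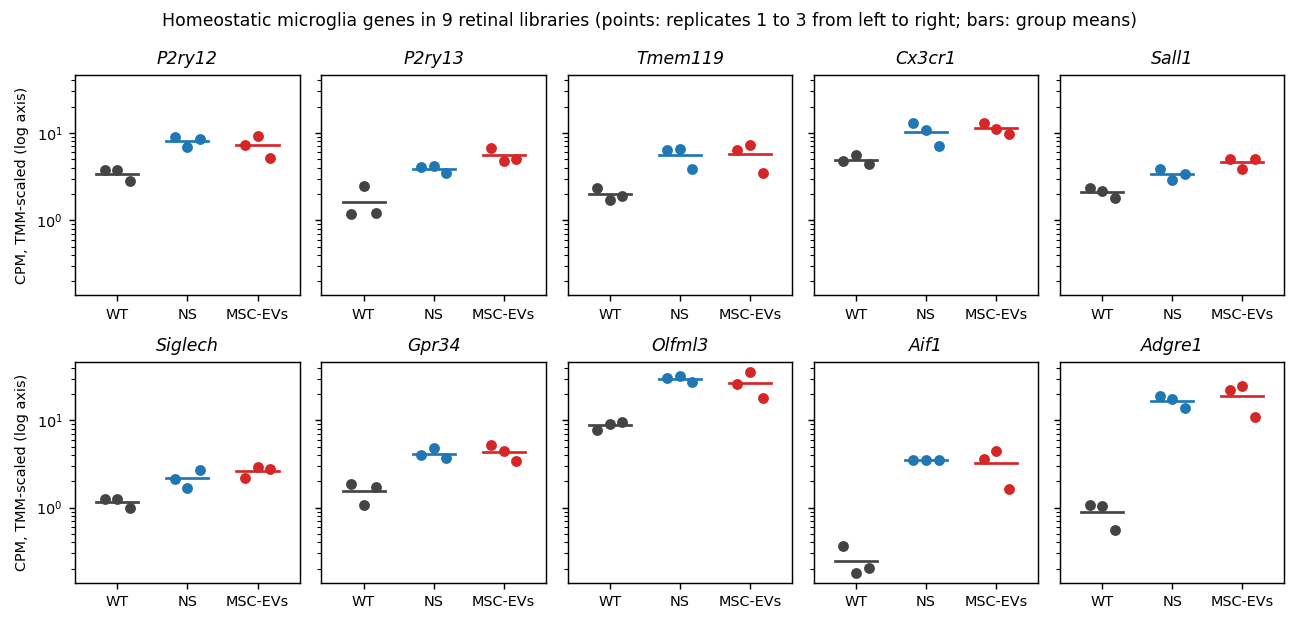
CPM (TMM-scaled, log axis) of the 10 members in each library, 1 panel per gene, with WT in grey, NS-treated rd10 in blue and MSC-EVs-treated rd10 in red; points are replicates 1 to 3 from left to right and bars are group means. For each member the 6 rd10 points lie above the 3 WT points, and the step is steepest for Aif1 and Adgre1.

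Among the surface receptors, P2ry12 and P2ry13 encode ADP receptors, and that of P2ry12 directs microglial processes to sites of injury. P2ry12 stood at 3.72, 3.76 and 2.80 CPM in the WT libraries, at 9.03, 6.86 and 8.47 in the NS-treated ones and at 7.28, 9.14 and 5.22 in the MSC-EVs-treated ones. It rose 2.36-fold (log2 fold change 1.24, SE 0.17, edgeR adjusted p = 5.79e-05). P2ry13 had 1.17, 2.46 and 1.20 CPM in WT, 4.02, 4.22 and 3.48 with NS and 6.78, 4.78 and 5.04 with MSC-EVs. The highest WT library of P2ry13 lay well above the rest, and the gene rose 2.41-fold (log2 fold change 1.27, SE 0.28, edgeR adjusted p = 0.00183). Gpr34, a receptor for lysophosphatidylserine, a lipid that dying cells expose, measured 1.88, 1.07 and 1.70 CPM in WT, 3.99, 4.76 and 3.66 with NS and 5.23, 4.44 and 3.39 with MSC-EVs. Its groups were apart from WT without overlap, and it rose 2.65-fold (log2 fold change 1.41, SE 0.24, edgeR adjusted p = 0.000284).

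Cx3cr1 encodes the receptor for fractalkine, a chemokine that neurons display and shed and that keeps microglia quiescent. Its CPM was 4.76, 5.64 and 4.36 in WT, 13.1, 10.8 and 7.14 with NS and 13.1, 11.2 and 9.76 with MSC-EVs. The NS libraries of Cx3cr1 spread more widely than the WT ones without reaching them, and it rose 2.11-fold (log2 fold change 1.08, SE 0.21, edgeR adjusted p = 0.00132). The ligand gene, Cx3cl1, changed less: it was 116, 119 and 118 CPM in WT and 153, 125 and 151 with NS, a rise of 1.22-fold (log2 fold change 0.28, SE 0.07, edgeR adjusted p = 0.00622).

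Tmem119, a membrane protein used to tell microglia from incoming macrophages, had 2.33, 1.70 and 1.90 CPM in WT, 6.36, 6.52 and 3.85 with NS and 6.40, 7.34 and 3.44 with MSC-EVs. It rose 2.81-fold (log2 fold change 1.49, SE 0.24, edgeR adjusted p = 0.000169), and replicate 3 was the lowest library of each rd10 group. Siglech, a receptor of the Siglec family, was at 1.26, 1.25 and 1.00 CPM in WT, at 2.10, 1.67 and 2.70 with NS and at 2.18, 2.95 and 2.77 with MSC-EVs. The rise of Siglech was 1.83-fold (log2 fold change 0.87, SE 0.27, edgeR adjusted p = 0.0134), and the call was lost without WT replicate 3 (log2 fold change 0.78, edgeR adjusted p = 0.0525) or without NS replicate 3 (0.69, adjusted p = 0.0651).

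Sall1 encodes a zinc-finger transcription factor that holds the microglial program in place, and it showed the smallest rise of the 10. Its CPM was 2.33, 2.15 and 1.80 in WT, 3.89, 2.89 and 3.39 with NS and 5.02, 3.89 and 4.99 with MSC-EVs. The lowest NS library still lay above the highest WT library. Sall1 rose 1.62-fold (log2 fold change 0.69, SE 0.21, edgeR adjusted p = 0.013), and without NS replicate 1 it was no longer called (0.57, edgeR adjusted p = 0.0566). Olfml3, a secreted glycoprotein, was the member with most counts, with 7.81, 9.09 and 9.56 CPM in WT, 30.4, 32.4 and 27.4 with NS and 26.0, 35.9 and 18.1 with MSC-EVs. It rose 3.41-fold (log2 fold change 1.77, SE 0.10, edgeR adjusted p = 4.45e-08).

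Aif1 and Adgre1 stood out by size. Aif1, whose product Iba1 binds calcium and actin, was counted 8, 4 and 4 times in the WT libraries, 105, 72 and 77 times in the NS-treated and 87, 104 and 104 times in the MSC-EVs-treated libraries. In CPM this was 0.359, 0.179 and 0.200 in WT, 3.55, 3.53 and 3.52 with NS and 3.64, 4.44 and 1.62 with MSC-EVs. The rise with NS was 14.0-fold (log2 fold change 3.80, SE 0.30, edgeR adjusted p = 5.92e-07), over a WT level that rests on few counts. Adgre1, an adhesion receptor of macrophages, was counted 24, 23 and 11 times in WT, 556, 354 and 300 times with NS and 526, 578 and 705 times with MSC-EVs. Its CPM was 1.08, 1.03 and 0.551 in WT, 18.8, 17.4 and 13.7 with NS and 22, 24.7 and 11.0 with MSC-EVs. Adgre1 rose 18.5-fold (log2 fold change 4.21, SE 0.21, edgeR adjusted p = 1.64e-08). The next largest rise among the members was that of Olfml3, at 3.41-fold.

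The order of the members per length of transcript also differed between the groups. In FPKM, which divides by length and depth, P2ry12 led in WT (1.94 ± 0.53, SD, n = 3), and Adgre1 (0.273 ± 0.10) and Aif1 (0.270 ± 0.10) came last. With NS, Olfml3 (5.75 ± 0.47) and Adgre1 (5.36 ± 0.81) led, followed by Aif1 (4.39 ± 0.015), P2ry12 (4.16 ± 0.70), Cx3cr1 (2.95 ± 0.87), Tmem119 (2.59 ± 0.69), Gpr34 (2.25 ± 0.29), P2ry13 (1.62 ± 0.15), Siglech (1.45 ± 0.19) and Sall1 (0.673 ± 0.10). Neighbours in these orders mostly shared a range: in WT, Cx3cr1 and Tmem119, and Siglech and Sall1, were the 2 of 9 neighbouring pairs without overlap, and with NS they were Adgre1 and Aif1, Gpr34 and P2ry13, and Siglech and Sall1. With MSC-EVs, Adgre1 came first (6.35 ± 2.6) and Sall1 last (0.907 ± 0.13), and that last step, from Siglech, was the 1 of 9 without overlap. Adgre1 made up 2.19% to 4.10% of the members' summed FPKM in WT and 15.7% to 18.1% with NS. P2ry12 made up 18.7% to 26.7% in WT and 10.5% to 16.3% with NS. The length that the authors' FPKM used for a gene differed between libraries by up to 1.66 times for Siglech and 1.48 times for P2ry12, so the FPKM of these 2 is less comparable between libraries than their counts.

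The second comparison asks what the vesicles did to these genes in the degenerating retina. None of the 10 was called between MSC-EVs-treated and NS-treated rd10 by edgeR, where 1.16% of the 14765 genes were called in either direction and 0.914% were called higher. The fitted log2 fold changes ran from -0.18 (P2ry12) to 0.50 (P2ry13), with 7 above 0 and 3 (P2ry12, Olfml3 and Aif1) below it, and their median was 0.10, with -0.002 over all genes. At an unadjusted p under 0.05 there were 2 by edgeR, P2ry13 and Sall1, and 1 by DESeq2. The share of all genes at this cut was not taken, so no excess is read from these counts. After adjustment, DESeq2 and limma also called 0. The NS libraries are shared with the first comparison, so the values of both are not independent.

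P2ry13 was the only member for which the 3 MSC-EVs libraries all lay above the 3 NS libraries, which 12.8% of genes did, and 0 members lay below, as 13.5% of genes did. Its fold was 1.42 (log2 fold change 0.50, 95% interval 0.08 to 0.93, edgeR unadjusted p = 0.0254, adjusted p = 0.183). Sall1 was 1.37 times as high (log2 0.46, 0.02 to 0.89, edgeR unadjusted p = 0.0424, adjusted p = 0.228), with the libraries overlapping. The intervals of the others included 0 and bound what could be missed: for Adgre1 the log2 difference lay between -0.58 and 0.96, for Aif1 between -0.92 and 0.60, and for Tmem119 between -0.70 and 0.74. The intervals were -0.65 to 0.28 for P2ry12, -0.36 to 0.61 for Cx3cr1, -0.40 to 0.54 for Gpr34, -0.26 to 0.85 for Siglech and -0.75 to 0.39 for Olfml3. In this fit, which holds no Y-linked covariate, a change of 2-fold in either direction thus lay outside the interval of each of the 10 members. Intervals of the fit with that covariate are not given here.

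The 3 MSC-EVs libraries were not alike. Replicate 3 had the lowest CPM of its group in 7 of the 10 members, and in 6 of them (P2ry12, Tmem119, Gpr34, Olfml3, Aif1 and Adgre1) it was the lowest of all 6 rd10 libraries. The summed CPM of the members was 97.7, 108.7 and 65.3 in MSC-EVs replicates 1 to 3, with NS at 77.4 to 95.2, and the sum over 8 genes of myeloid cells in general was likewise lowest of the rd10 libraries in replicate 3 (156.3, with 164.1 to 260.5 in the other 5). Without that library all 10 members were above NS and 0 were called. Replicate 3 is also the one MSC-EVs library without the Y-linked signal, and with the Y-linked level as a covariate 3 of the 10 members were above NS and 0 were called. The parts of the Y-linked level and of this library cannot be told apart.

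**Figure D2:**
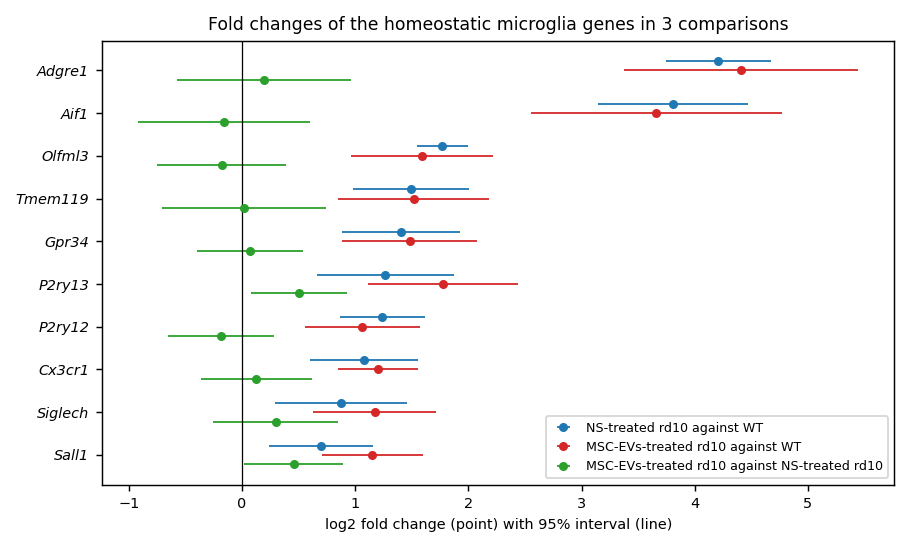
Log2 fold change of each member (points) with its 95% interval from the edgeR fit (lines) in 3 comparisons, in the order of the change from WT to NS-treated rd10. The blue (NS against WT) and red (MSC-EVs against WT) intervals lie above 0 for each member, and the green ones (MSC-EVs against NS) include 0 except for P2ry13 and Sall1.

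Against WT, MSC-EVs-treated rd10 retinas again showed all 10 members higher and each by at least 2-fold, where 28.3% of genes were called higher and 9% were called at least 2-fold higher by edgeR. The 3 MSC-EVs libraries lay above the 3 WT libraries in all 10, and in 31.9% of all genes. The changes ran from 2.09-fold for P2ry12 (log2 fold change 1.06, SE 0.23, edgeR adjusted p = 0.00307) to 21.3-fold for Adgre1 (4.41, SE 0.43; adjusted p = 0.000242), with a median log2 fold change of 1.498. In between stood Sall1 (1.15), Siglech (1.17), Cx3cr1 (1.20), Gpr34 (1.48), Tmem119 (1.52), Olfml3 (1.59), P2ry13 (1.77) and Aif1 (3.66) on the log2 scale. Aif1 and Adgre1 had the largest changes here too, and the WT libraries are the same as in the first comparison. MSC-EVs replicates 1 and 2 carried the Y-linked signal and the WT libraries did not. Its part in this comparison cannot be told apart from those of genotype, injection, source and vesicles.

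A rise in whole retina does not say how the members moved within the myeloid compartment, so each was also set against 8 pan-myeloid genes (Ptprc, Laptm5, Cd53, Itgam, Cyth4, Coro1a, Csf1r and Ly86), as log2(CPM + 0.1) of the member minus the mean of the 8. These 8 genes themselves rose by a median log2 fold change of 3.08 from WT to NS, from 1.09 (Coro1a) to 3.80 (Ptprc). The differences below thus depend on which genes are averaged. Csf1r is also in the list of further homeostatic microglia genes given later. On this scale 8 members were lower in all 3 NS libraries than in any WT library, as were 96.4% of the 14644 genes tested, so lying lower is what most genes of the retina did. Aif1 and Adgre1 were higher, as were 1.05% of genes. The median difference over all genes was -2.71, below that of each of the 10 members. Among the members Sall1 moved furthest, from -0.17 ± 0.31 in WT to -2.21 ± 0.16 with NS (SD, n = 3). The differences in log2 units were -2.05 for Sall1, -1.90 for Siglech, -1.69 for Cx3cr1, -1.49 for P2ry12, -1.41 for P2ry13, -1.33 for Gpr34, -1.29 for Tmem119 and -0.95 for Olfml3. They were 0.72 for Aif1 and 1.41 for Adgre1. Each of these 10 has an exact two-sided permutation p of 0.1, the smallest that 3 libraries against 3 can give, so none can pass a threshold of 0.05. The sign of Aif1 depends on the pseudocount: with 1 in place of 0.1, which is more than its WT level, its difference was -0.37 and 9 members were lower.

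**Figure D3:**
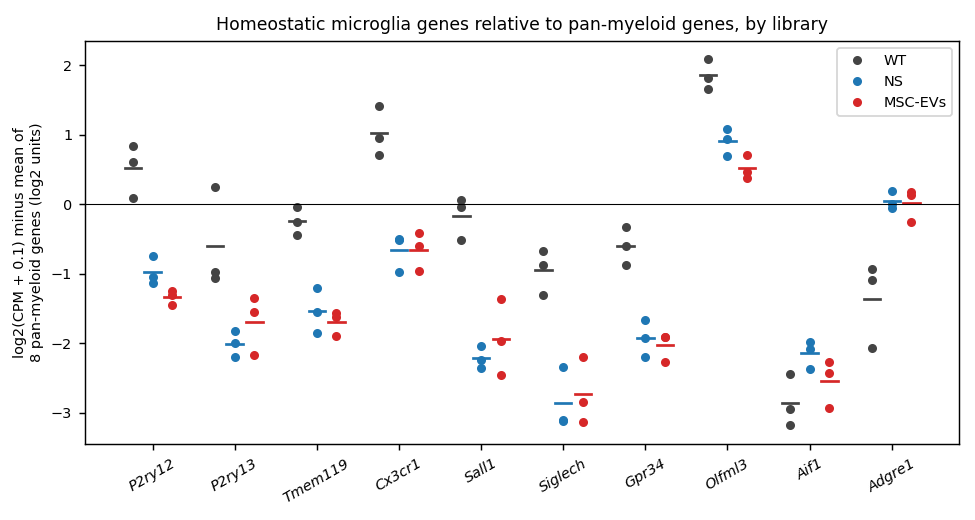
Level of each member relative to the mean of 8 pan-myeloid genes, in log2 units, with 1 point per library and bars for group means (WT grey, NS-treated rd10 blue, MSC-EVs-treated rd10 red). From WT to NS, 8 members lie lower, as do 96.4% of all genes, and Aif1 and Adgre1 higher, as do 1.05%; the NS and MSC-EVs points overlap except for P2ry12.

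Ratios of counts between genes of the same library, which need no scaling between libraries, were also taken. The count of Adgre1 was 0.289, 0.274 and 0.196 times that of P2ry12 in the WT libraries, 2.08, 2.53 and 1.62 times with NS and 3.02, 2.70 and 2.10 times with MSC-EVs. P2ry12 thus outnumbered Adgre1 in each WT library and was outnumbered in each rd10 library. The count of P2ry12 was 0.307, 0.350 and 0.231 times that of Csf1r in WT, 0.118, 0.125 and 0.145 times with NS and 0.0947, 0.0930 and 0.0845 times with MSC-EVs. On the log2 CPM scale with Csf1r alone as the reference, 95.5% of genes tested lay lower without overlap from WT to NS. From NS to MSC-EVs 9.27% did. Between the rd10 groups, P2ry12 was the 1 member whose level relative to the 8 genes did not overlap, at -0.98 ± 0.21 with NS and -1.33 ± 0.10 with MSC-EVs (exact permutation p = 0.1). It lay lower with MSC-EVs, as did 3.52% of genes, and 0 members lay higher, as did 0.901%. In FPKM, where its length varied, 0 members were apart. P2ry13 was 0.317 log2 units higher with MSC-EVs on this scale, with overlapping libraries (exact permutation p = 0.3).

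Other genes of the same biology, taken as whole lists, moved from WT to NS as follows. Of 18 further homeostatic microglia genes, 17 rose, 16 of them by at least 2-fold, with a median log2 fold change of 1.94. The largest were Fcrls, an Fc receptor-like protein (4.47, SE 0.18), the UDP receptor P2ry6 (3.64, SE 0.29), Il10ra, a chain of the IL-10 receptor (2.98, SE 0.26), and the lectin Cd33 (2.93, SE 0.18); the fructose transporter Slc2a5 was not called (0.19, SE 0.35, edgeR adjusted p = 0.649). Of 18 disease-associated microglia genes, 18 rose, with a median of 2.88. Cst7, a cathepsin inhibitor, was counted 1 to 2 times in the WT libraries and 112 to 210 times with NS, and the integrin Itgax 0 to 3 and 76 to 142 times. The beta-glucan receptor Clec7a rose by 4.97 (SE 0.26) and Gpnmb by 4.75 (SE 0.31) on the log2 scale.

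Of 13 ligands and regulators of microglia, 10 rose and 2 fell, with a median of 0.83. Spi1, the gene of PU.1 (4.23, SE 0.41), the transcription factors Runx1 (2.94, SE 0.33) and Irf8 (2.53, SE 0.18) and the cytokine Tgfb1 (2.37, SE 0.20) rose most. One that fell, named after its value was seen, was Mef2c (-2.20, SE 0.11), a transcription factor that is also present in neurons. Of the survival factors that bind CSF1R, Csf1 rose by 1.56 and Il34 by 0.68. With MSC-EVs against NS, 0 of these 13 genes and 0 of the disease-associated genes were called by edgeR, and of the 18 homeostatic genes Cd33 was (log2 fold change 0.71, SE 0.14, edgeR adjusted p = 0.0497).

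Markers of cells other than microglia moved as well. Rod markers fell in 15 of 15 cases (median log2 fold change -1.77). The median over markers of the inner retina was 0.17 for amacrine, 0.28 for bipolar and 0.75 for Müller cells, with 7, 6 and 7 of 10 genes called higher, and 1 bipolar marker, Prkca, named after its value was seen, was called lower (-0.23, SE 0.06). Of the Müller markers 3 rose by at least 2-fold: Crym, which binds thyroid hormone (2.85, SE 0.38), the transcription factor Sox9 (1.90, SE 0.09) and the water channel Aqp4 (1.02, SE 0.07). Of 10 monocyte markers, 8 were tested and 7 rose. Ly6c2 was counted 0 to 2 times in WT and 33 to 224 times with NS, Ccr2 0 to 1 and 15 to 55 times, and Plac8 0 to 1 and 37 to 121 times, while the lysozyme gene Lyz2 rose by 5.34 (SE 0.51) on the log2 scale. The summed CPM of the monocyte list was 78.9 to 91.1 in WT, 135.6 to 220.7 with NS and 168.8 to 242.7 with MSC-EVs. The integrin Itga4, with 1684 to 1840 counts per WT library, made up most of the WT sum. It was not called from WT to NS (0.16, SE 0.09) and was the 1 monocyte marker called between MSC-EVs and NS (log2 fold change 0.51, SE 0.09, edgeR adjusted p = 0.0401). Of 10 markers of border-associated macrophages, 6 were tested, 5 rose and 1, Lyve1, named after its value was seen, fell (-0.30, SE 0.10). Their sum was 23.4 to 24.3 CPM in WT, 40.1 to 52.8 with NS and 34.0 to 51.0 with MSC-EVs, and Cd163, Pf4 and Cd209f were at 0 in each WT library. From NS to MSC-EVs the median log2 fold change over the 9 monocyte markers tested there was 0.51, which is the value of Itga4. These markers ran from -0.40 (Lyz2, SE 0.45) to 1.65 (Chil3, SE 1.22), and those other than Itga4 were not called. The median over the 6 border-associated macrophage markers was -0.18, with 0 called. The part of monocytes and border-associated macrophages in the rise of the members, and in the larger rise of Aif1 and Adgre1, was not tested. Of 12 neutrophil and lymphocyte markers 1 was tested, Cd8a (1.23, SE 0.30), and S100a8, S100a9, Mpo, Elane, Cd3e, Ncr1 and Nkg7 were at 0 in WT. The summed CPM of the 12 was 0.985 to 1.57 in WT, 3.75 to 4.16 with NS and 2.13 to 6.02 with MSC-EVs. Nkg7 had 6 to 23 counts with NS and 3 to 24 with MSC-EVs. Cd3g had 0 to 2 counts in WT, 4 to 19 with NS and 9 to 15 with MSC-EVs. Elane was also at 0 in each rd10 library, and Mpo and Ncr1 had at most 2 and 3 counts in a library. Ly6g had 0 to 2 counts in the WT libraries and 0 with NS.

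**Figure D4:**
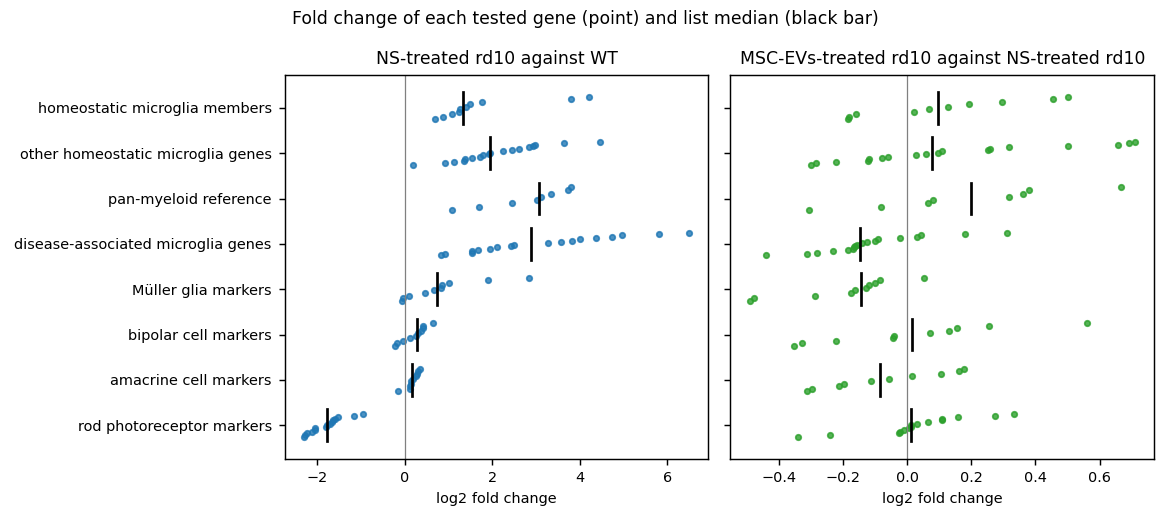
Log2 fold change of each tested gene (points) and the list median (black bars) for the 10 members and 7 other gene lists, from WT to NS on the left and from NS to MSC-EVs on the right; the horizontal axes differ in range. On the left the myeloid lists lie to the right of 0 and the rod markers to its left, and on the right the medians of the 8 lists drawn lie between -0.15 and 0.20.

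Among the 14908 genes compared over the 9 libraries, those whose log2 CPM followed the mean of the members most closely included Msn, Axl, Grn and Mmp14. Their root-mean-square differences from it, after centring, were 0.089, 0.119, 0.121 and 0.123 log2 units. Msn encodes moesin, which ties the membrane to actin, Axl a receptor tyrosine kinase, Grn progranulin and Mmp14 a membrane-bound metalloproteinase. The members themselves were further from their own mean, from 0.228 for Olfml3 and 0.272 for Tmem119 to 0.788 for Aif1 and 1.17 for Adgre1. All of these points share the 9 libraries and the step from WT to rd10.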

How the data were processed

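RNA was measured by RNA-seq in 9 retinal libraries, 3 from WT mice and 3 from each of the rd10 groups (NS or MSC-EVs). The authors deposited each gene's estimated counts (expected count values, not scaled to library size), and FPKM, scaled by them to transcript length and depth. The submitters' processing notes name fastp, Bowtie2, HISAT2, StringTie 1.3.1 and RSEM; the genome build and annotation are not given in the sources used here. Counts were rounded to whole numbers (9.16% to 11.7% of genes per library had decimals), since the planned tests assumed whole counts.

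For each comparison the 6 libraries were fitted by the quasi-likelihood method of edgeR (version 4.0.16, under R 4.3.3), with TMM scaling, the default filterByExpr and a robust glmQLFit. The calling threshold was an adjusted p of 0.05 (Benjamini-Hochberg, over all genes tested), and calls of at least 2-fold were counted apart. All 10 members passed the filter on low counts in all 3 comparisons, so each was tested. The SE is the absolute log2 fold change divided by the square root of F, and intervals use the t distribution. Levels are TMM-scaled CPM over the 9 libraries. Ratios to the 8 pan-myeloid genes (pseudocount 0.1) were compared with exact two-sided permutation tests. DESeq2 1.42.0 and limma 3.58.1 (on log2 FPKM) served as alternatives, beside other filters, scalings and left-out libraries. The fits were tested on simulated data.

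The members and gene lists were chosen with earlier results of these data known. Named were all members, Pde6b, Cx3cl1 as ligand, up to 4 called genes of largest change per list and the 5 genes closest to the members' mean, of which some items are not reported here. No 2 replicates agreed within sampling noise (chi-square per degree of freedom at least 3.99).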

Additional observations from a re-analysis of the deposited data

How the results depend on the processing

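The number of members called kept to 9 or 10 against WT and to 0 between the rd10 groups under every alternative run. It was 9 with at least 10 counts in every library, where Aif1 was not tested. Without 1 library it ranged from 9 to 10 for NS against WT, from 0 to 0 for MSC-EVs against NS and from 10 to 10 for MSC-EVs against WT. On log2(FPKM + 1), limma put 3 members rather than 8 past 2-fold for NS against WT, and 5 rather than 10 for MSC-EVs against WT. Of the members' fold changes between MSC-EVs and NS, 16 turned sign under an alternative and 134 did not, with 0 called; against WT none of the refitted values turned sign. On log2(FPKM + 1) and log2(FPKM + 0.1), P2ry12 was at 0.052 and 0.057. With the Y-linked level as covariate, Tmem119 was at -0.69, Cx3cr1 at -0.071, Gpr34 at -0.278 and Adgre1 at -0.59. With 1 library left out, the log2 fold change between the rd10 groups ran from -0.391 to 0.013 for P2ry12, from -0.454 to 0.042 for Olfml3 and from -0.475 to 0.193 for Aif1, each highest without MSC-EVs replicate 3. It ran from -0.209 to 0.3 for Tmem119 and from -0.038 to 0.487 for Adgre1, both lowest without MSC-EVs replicate 2, from -0.077 to 0.342 for Cx3cr1, lowest without NS replicate 3, and from -0.077 to 0.229 for Gpr34, lowest without MSC-EVs replicate 1. The number of members apart between the rd10 groups relative to the pan-myeloid genes was 1 (4.42% of all genes), with 2 against Csf1r alone (9.63%), 0 in FPKM (5.1%) and 1 to 5 with 1 library left out, where 5.47% to 56.9% of all genes were apart. It was 5 without MSC-EVs replicate 2 (8.37%), 3 without NS replicate 1 (19.7%), 2 without NS replicate 3 (6.22%) and 1 without MSC-EVs replicate 3 (56.9%); the cause was not tested.

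With the replicate number as a block, 10, 0 and 10 members were called, in the order NS against WT, MSC-EVs against NS and MSC-EVs against WT. Over all genes the block moved the calls between MSC-EVs and NS from 172 to 403. The deviations of same-numbered libraries there correlated at 0.092, 0.177 and 0.275, and each library correlated best with its own number, a hint from the data only; against WT the correlations of same-numbered libraries were at most 0.074. Over all genes, the calls between the rd10 groups ranged from 0 to 1026 over the alternatives, with 912 by DESeq2. The depth limits Aif1, with 4 to 8 counts per WT library.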
